A study of Homo sapiens with 2 samples.

Results

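Cadherins are calcium-dependent adhesion proteins at the cell surface. The cadherin and protocadherin genes described here were those with a probe set whose only gene symbol in the platform annotation starts with CDH and a number or with PCDH. This rule uses names and no measured value, and it gave 69 of 19775 genes, read by 121 of 54675 probe sets. They comprise 17 classical cadherins, 4 other CDH genes, 11 protocadherins outside the gene clusters, 36 genes of the 3 protocadherin clusters and PCDH10-DT, a noncoding transcript that shares only its name with the family. Desmosomal cadherins, FAT, CELSR and CDHR genes lie outside the rule, and CDH4 and CDH13 were not analysed here.

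The samples were 2 cultures labelled U87, an established human glioblastoma line. One received an siRNA without a target, as the control, and the other an siRNA against the transcription factor FOXM1, by lipid transfection, and RNA was taken after 48 hours. Each was hybridised to 1 array, so there is no replicate, no test and no p-value, and every statement is about these 2 arrays. FOXM1 itself read 1520 on the non-target siRNA array and 1343 on the FOXM1 siRNA array, a log2 difference of -0.18. CDKN2A read 3467 and 421. MTAP and CDKN2B were at least 7.96-fold and 4.50-fold lower on the FOXM1 siRNA array. U87 cells are known to have lost these 9p21 genes on both chromosomes, so a difference between the cells and an effect of the siRNA cannot be told apart. Of 15 glial and neural progenitor markers, 11 lay above the floor (defined below) on at least 1 array, among them SLC1A3 at 874 and 1278 and OLIG2 at 270.3 and 266. The other 4 lay below it on both arrays, GFAP among them at 16.5 and 4.89. Of the 11, SOX2 read 680.4 and 59.2, at least 8.75-fold lower on the FOXM1 siRNA array. NES read 54.0 and 261, at least 4.29-fold higher there.

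Classical cadherins join neighbouring cells by binding the same cadherin on the other side, and their cytoplasmic tail holds beta-catenin and p120-catenin, which tie the junction to actin through alpha-catenin. Exchange of E-cadherin (CDH1) for N-cadherin (CDH2) is the textbook mark of an epithelial to mesenchymal transition, and N-cadherin is the usual classical cadherin of glial cells. Protocadherins lack the catenin-binding tail. The clustered ones are chosen promoter by promoter in single neurons and give each cell a surface identity, while the delta protocadherins are separate genes that steer cell sorting and axon growth.

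The clustered genes are described first by their promoters. They are 36 of the 69 members and 5 of the 9 at least 2-fold higher on the FOXM1 siRNA array, near their share of the members. Their promoters are known to share a conserved element with a CGCT core, and CTCF and cohesin bring distant enhancers to them. In the RefSeq promoter table of GRCh38.p14, each window runs from 250 bases before to 50 after a gene start, and 52 of the 69 genes have one. The 8 letters held by most of the 14 beta-cluster windows were GTGGCGCT, found in 13 of them, always on the gene's own strand. Of all 35116 windows 1.15% hold these letters on either strand. The letters were picked because the cluster shares them, so the 92.9% share in the cluster describes the choice. For the alpha cluster the same search gave ATGTCGCT in 9 of 13 genes (0.234% of all windows), and for the gamma cluster GCCGCTGT in 11 of 20 genes (1.63%). All 3 contain the letters CGCT. PCDHB1 was the beta gene without the letters.

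The stretches around these letters are shown for 4 beta genes above the floor on the FOXM1 siRNA array and then for 3 below the floor on both arrays, with the shared letters in capitals. They are on the plus strand of chromosome 5.
PCDHB2 (chr5:141094540-141094579): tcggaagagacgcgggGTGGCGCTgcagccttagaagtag
PCDHB7 (chr5:141172562-141172601): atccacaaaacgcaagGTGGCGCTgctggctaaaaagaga
PCDHB14 (chr5:141223259-141223298): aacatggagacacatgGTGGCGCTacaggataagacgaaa
PCDHB16 (chr5:141182306-141182345): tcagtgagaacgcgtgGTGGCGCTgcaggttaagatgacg
PCDHB4 (chr5:141121719-141121758): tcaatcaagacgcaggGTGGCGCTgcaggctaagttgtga
PCDHB8 (chr5:141177773-141177812): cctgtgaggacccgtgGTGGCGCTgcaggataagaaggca
PCDHB3 (chr5:141100389-141100428): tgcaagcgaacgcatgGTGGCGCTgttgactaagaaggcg
The whole window of PCDHB2 (chr5:141094365-141094664), the beta gene with the highest bound below, shows where the letters lie before the gene start.
PCDHB2: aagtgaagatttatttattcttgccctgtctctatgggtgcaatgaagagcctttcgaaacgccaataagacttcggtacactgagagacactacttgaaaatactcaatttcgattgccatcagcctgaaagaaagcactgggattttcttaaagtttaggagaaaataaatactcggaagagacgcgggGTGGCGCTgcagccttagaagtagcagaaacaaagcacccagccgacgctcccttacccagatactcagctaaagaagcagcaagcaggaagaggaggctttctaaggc

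Values are deposited MAS5 signals, linear intensities scaled over the whole array. A probe set was taken as detected above a floor, the 90th percentile of 135 probe sets for olfactory receptor genes, which was 60.8 on the non-target siRNA array and 77.7 on the FOXM1 siRNA array. By construction about 10.4% of these receptor probe sets lie above it. Of the cadherin and protocadherin probe sets, 24.8% and 27.3% did, against 53.2% and 50.5% of all probe sets. At 2 times the floor, 13 and 16 of the 121 member probe sets remained, and 4 and 3 of the 135 receptor probe sets. A gene was read by the probe set whose log2 signal, averaged over the arrays, was highest. On that basis 13 members lay above the floor on both arrays, 5 only on the non-target siRNA array, 12 only on the FOXM1 siRNA array and 39 on neither. Those 39 had signals of at most 72.9 and no order.

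Of the 30 members detected on at least 1 array, 9 were at least 2-fold higher on the FOXM1 siRNA array, where 16.0% of all detected genes were, and 2 at least 2-fold lower, where 15.4% were. Of these 9, 7 passed the floor only through the array on which they were high and so had to differ. Of all genes above the floor only on the FOXM1 siRNA array, 45.1% were at least 2-fold higher, and so were 7 of the 12 members of that kind. Among the 13 members above both floors, 2 were higher and 2 lower, beside 15.3% and 14.8% of all such genes. These 13 had a median log2 difference of 0.36, against -0.03 for all 11395 genes of that kind. With the hybridisation controls set equal the all-gene median went from 0.01 to -0.29. Then 5 members were higher and 2 lower, and 32.9% in place of 51.0% of all calls were on the higher side. The log2 differences from a pair of probe sets of one gene differed with an SD of 0.65 over 5476 genes, or 0.46 per probe set. This SD is the disagreement of probe sets above both floors on the same 2 arrays. It holds no variation between cultures, transfections or arrays, which 1 array per group cannot give.

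**Figure D1:**
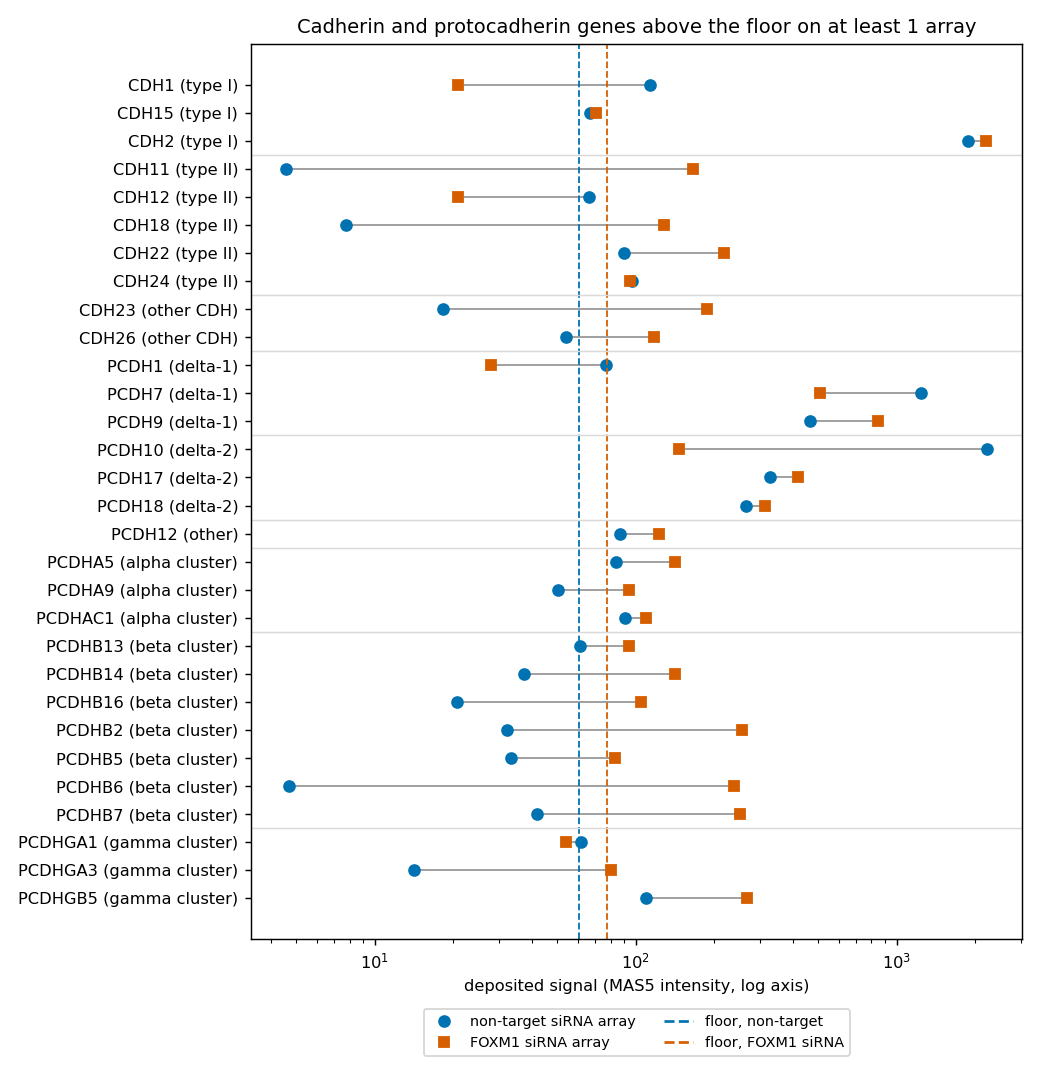
Deposited signal (log axis) of the 30 genes above the floor on at least 1 array, by subfamily. Circles are the non-target siRNA array, squares the FOXM1 siRNA array, and dashed lines the floors of 60.8 and 77.7. PCDH10 and PCDH7 are lower on the FOXM1 siRNA array, CDH2 is nearly equal, and the beta-cluster genes stand to the right on the FOXM1 siRNA array.

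Among classical cadherins, N-cadherin was clearly present and nearly equal. CDH2 read 1871 on the non-target siRNA array and 2192 on the FOXM1 siRNA array, a log2 difference of 0.23, which is inside the probe set SD. Its second probe set went the other way, from 401 to 311. E-cadherin, the epithelial counterpart, was dim. CDH1 read 113 and 20.9, below the floor on the FOXM1 siRNA array, and was at least 1.45-fold lower there. With no floor its log2 difference would be -2.43. Its other probe set, at 20.6 and 10.4, was below the floor on both arrays. P-cadherin (CDH3), found in basal epithelia, was at 5.22 and 7.19, and muscle cadherin (CDH15) at 66.7 and 70.2 allowed no fold. Thus no measured type I gene was called at 2-fold in this setting, but the bound for CDH1 allows a larger difference.

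Type II cadherins were mostly below the floor. Of 13 measured, 8 were below it on both arrays, including VE-cadherin (CDH5), the junction protein of endothelium, at 12.4 and 12.2. CDH11, the mesenchymal osteoblast cadherin, read 4.56 and 165 in 1 probe set and was at least 2.72-fold higher on the FOXM1 siRNA array. That probe set has an ID ending in _x_at, a kind that can match several transcripts. The other 3 CDH11 probe sets stayed below the floor on both arrays, at 17.8 to 40.2 on the FOXM1 siRNA array. CDH18, a cadherin of the nervous system, read 7.74 and 128 and was at least 2.11-fold higher. That call was lost with quantile (0.94), loess (0.84) and hybridisation control (0.77) scaling, a common floor (0.72) and a floor 2 times as high (0.35). CDH22, also described from brain, read 90.1 and 218, 2.42-fold higher, but its second probe set read 79.9 and 10.3, the opposite order. CDH24 was equal in 1 probe set, at 96.9 and 94.9, and read 23.5 and 97.3 in the other. CDH12 read 66.1 and 20.9 and allowed no fold. Of the 3 type II genes past 2-fold, CDH11 and CDH22 thus rest on 1 of several probe sets and CDH18 on a single one.

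The other CDH genes were near background as well. CDH23, a very long cadherin of the hair cell tip link, read 18.3 and 187 in its brightest probe set, at least 3.07-fold higher on the FOXM1 siRNA array, while its other 3 stayed below the floor. CDH26 read 54.2 and 117, a bound of 1.92-fold, and its other 3 probe sets lay below both floors. The kidney cadherin CDH16 and the intestinal cadherin CDH17 were below both floors.

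Both members past 2-fold on the lower side were unclustered protocadherins. PCDH10, a delta-2 protocadherin that acts in axon growth and is silenced by methylation in several tumours, read 2227 on the non-target siRNA array and 147 on the FOXM1 siRNA array. It was 15.2-fold lower there, a log2 difference of -3.93. All of its other probe sets were lower on the FOXM1 siRNA array too. One read 277 and 41.1, at least 3.56-fold lower, and one 114 and 39.1, at least 1.46-fold lower. The last, at 42.7 and 21.8, was below both floors. PCDH10-DT, whose transcript starts beside PCDH10, read 32.3 and 31.5 and was not detected.

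PCDH7, a delta-1 protocadherin, read 1243 and 510.4 and was 2.44-fold lower, a log2 difference of -1.28. Its other probe sets had the same order: 985 and 587 in one, 348 and 153 in another, and 101 and 79.7 in another. The fifth read 74.0 and 51.9. With the median over its probe sets PCDH7 was at -0.75, under 2-fold. PCDH9, of the same group, read 466 and 851, a 1.83-fold higher value, and 139 and 121 in its other detected probe set, so that its direction depended on the probe set.

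PCDH17, a delta-2 protocadherin of synapses, was similar on both arrays in all 3 probe sets, at 326 and 418, 332 and 314, and 290.5 and 311. PCDH18 read 264 and 313, a log2 difference of 0.25. PCDH12, the protocadherin of endothelial cells, read 87.3 and 123, 1.41-fold higher, close to the floor. PCDH1, an epithelial protocadherin, read 76.8 and 27.9 and allowed no fold. PCDH8, PCDH11X, PCDH15 and PCDH19 were below both floors. PCDH17 and PCDH18, the other detected delta-2 genes, thus differed by less than 2-fold.

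**Figure D2:**
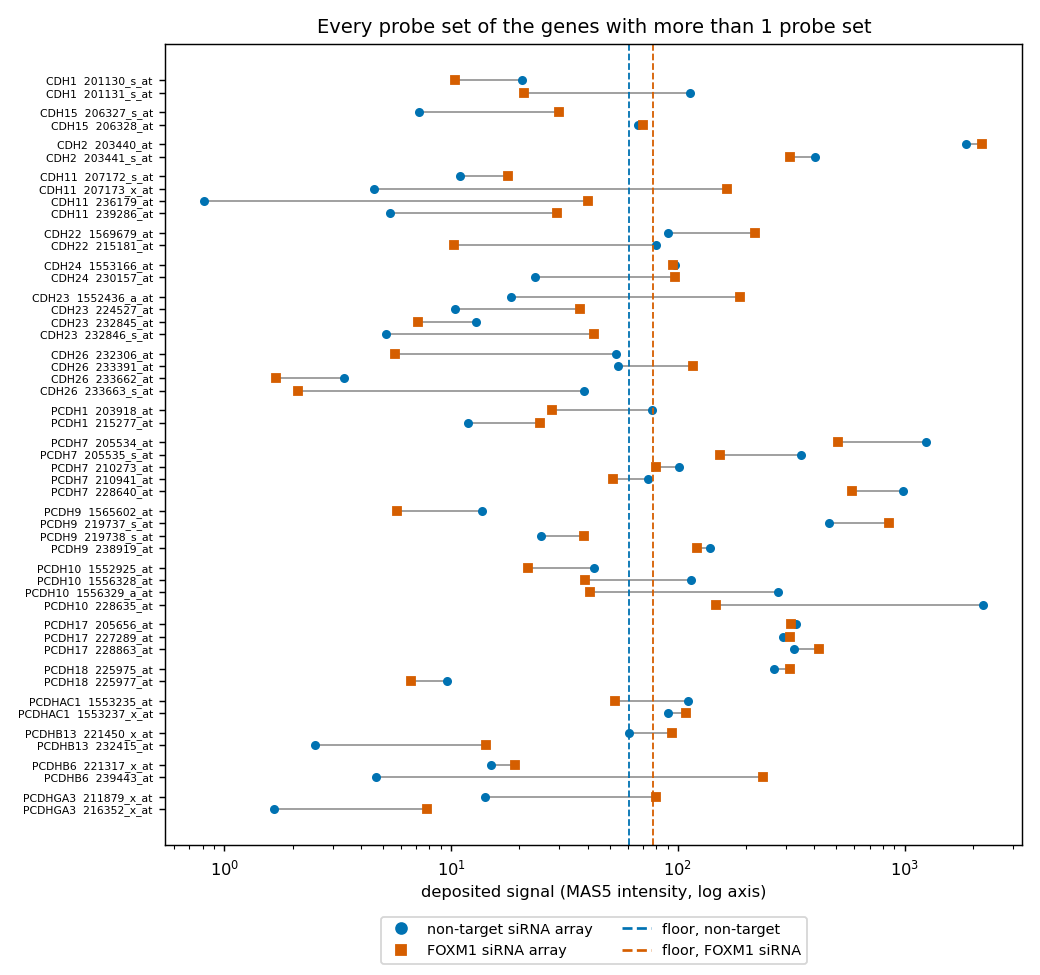
Every probe set of the detected genes that have more than 1, with the deposited signal on a log axis, circles for the non-target siRNA array, squares for the FOXM1 siRNA array and dashed lines for the floors. The PCDH10 and PCDH7 probe sets all point to lower signal on the FOXM1 siRNA array, whereas those of CDH2, CDH22 and PCDH9 point both ways and only 1 of 4 CDH11 probe sets passes a floor.

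In the beta cluster, a row of single-exon genes on chromosome 5, 7 of 17 members were detected, 6 of them only on the FOXM1 siRNA array. PCDHB2 read 32.2 on the non-target siRNA array and 255 on the FOXM1 siRNA array and was at least 4.19-fold higher. PCDHB7 read 41.8 and 251, at least 4.13-fold higher. PCDHB6 read 4.68 and 238, at least 3.92-fold higher, in 1 probe set, and 15.0 and 19.2 in the other. PCDHB14 read 37.2 and 141, at least 2.32-fold higher. These 4 beta genes were past 2-fold, all 4 among the 6 detected only on the FOXM1 siRNA array. Of all genes above the floor only there, 45.1% were at least 2-fold higher. Only PCDHB2 and PCDHB7 stayed past 2-fold with a floor 2 times as high.

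PCDHB16 read 20.7 and 105, PCDHB5 33.2 and 83.2, and PCDHB13 61.1 and 94.4, with differences of at least 1.73-fold, at least 1.37-fold and 1.54-fold. The other 10 were below both floors, and their highest signal was 67.6, for PCDHB12 on the FOXM1 siRNA array. The detected genes did not form 1 block: along the chromosome PCDHB2 is followed by PCDHB3 and PCDHB4, both below the floors, before PCDHB5 and PCDHB6. All 7 detected beta genes had the higher signal on the FOXM1 siRNA array, which for 6 of them follows from being detected there only. Beta-cluster genes are close copies of each other, so probes of one can read another.

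The alpha and gamma clusters differed from the beta cluster in layout, since each of their variable exons is spliced to shared last exons. An array read from the 3' end is poorly placed to see a variable first exon. Of 6 alpha members 3 were detected and none passed 2-fold: PCDHA5 read 84.0 and 141, PCDHA9 50.3 and 94.6, and PCDHAC1 90.7 and 109. PCDHAC1 had a second probe set in the opposite order, at 110.4 and 52.8. Of 13 gamma members 3 were detected. PCDHGB5 read 109 and 266, 2.43-fold higher, in a single probe set with an _x_at ID. PCDHGA3 read 14.1 and 80.0, a bound of 1.31-fold, and PCDHGA1 61.6 and 53.8, which allowed no fold. The other 10 were below both floors.

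**Figure D3:**
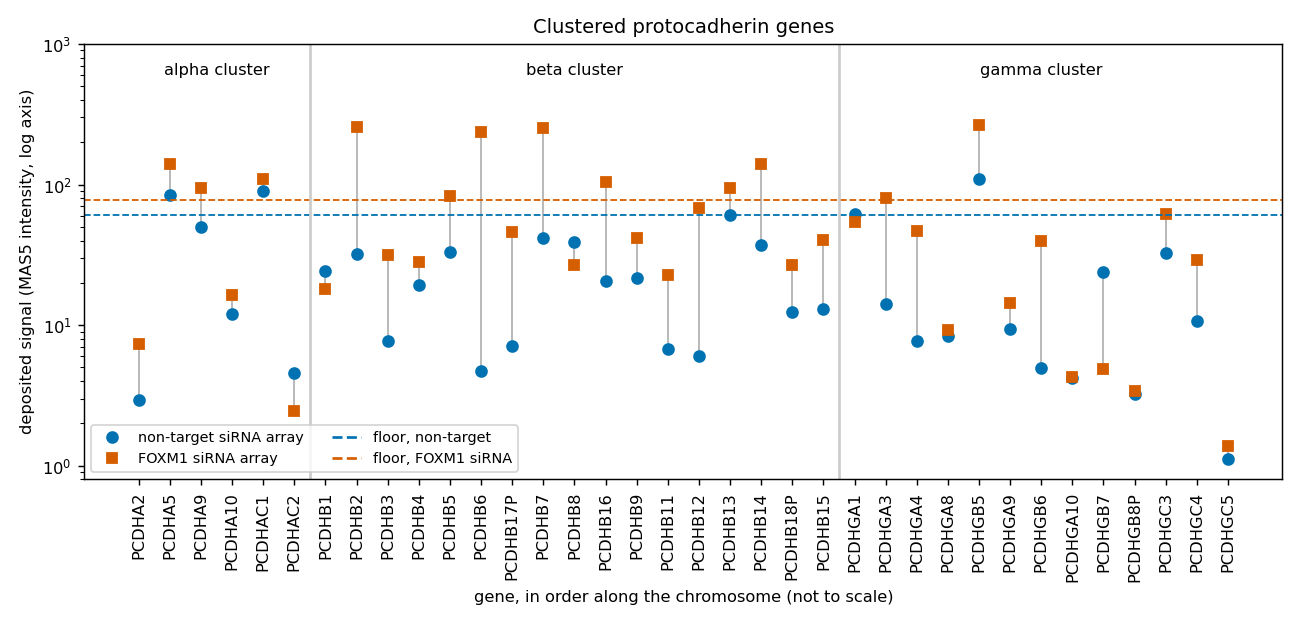
Deposited signal (log axis) of the 36 clustered protocadherin genes in their order along the chromosome, not to scale, with circles for the non-target siRNA array, squares for the FOXM1 siRNA array and dashed lines for the floors. PCDHB2, PCDHB6, PCDHB7, PCDHB14 and PCDHGB5 stand above the floor on the FOXM1 siRNA array, and most other genes stay below both floors.

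The genes that act with cadherins were read from lists. Of 22 measured catenins and junction linkers, 21 were detected. Past 2-fold were 3 on the higher and 4 on the lower side, or 14.3% and 19.0% of the detected, near the 16.0% and 15.4% of all detected genes, and the median log2 difference was 0.17. Beta-catenin (CTNNB1), named after its values were seen, read 12912 and 11165. Plakoglobin (JUP), its relative in desmosomes and adherens junctions, read 348 and 41.6 and was at least 4.48-fold lower. PLEKHA7, a p120-catenin partner, was at least 2.82-fold lower in its brightest probe set, and at -0.72 with the median of its probe sets and -0.49 with a floor 2 times as high. PTPRM, a receptor phosphatase that binds cadherins, was 3.96-fold higher. ARVCF, a p120 relative, was at least 2.59-fold lower in its brightest probe set, and its difference had the opposite sign, 0.35, without _x_at and _s_at probe sets.

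Of 21 measured genes in the list of E-cadherin repressors and epithelial regulators, 12 were detected, 3 of them higher and 2 lower, beside the same 16.0% and 15.4%, with a median of 0.44. The repressor SNAI2 read 1091 and 9173, 8.41-fold higher. FOXC2 was 6.92-fold and the repressor ZEB2 3.52-fold higher, while GRHL1, an epithelial regulator, had a log2 difference of -1.59 in its brightest probe set and of -0.62 with the median of its probe sets. The other lower gene, the repressor TWIST2, named after its values were seen, read 501 and 219, 2.29-fold lower. The repressors thus went both ways. Beside these values CDH1 was below the floor on the FOXM1 siRNA array and CDH2 was nearly equal. Of 19 genes for cadherin cleavage and turnover, 5 were higher and 1 lower, beside 16.0% and 15.4% of all detected genes, with a median of 0.51. MMP3 and MMP14, proteases that can shed cadherins, were 9.68-fold and 7.58-fold higher, the gamma-secretase gene APH1B 7.34-fold and NUMB, an endocytic adaptor, 3.46-fold.

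Genes that act at clustered protocadherin promoters were lower or similar. All 22 were measured above both floors. None was 2-fold or more higher, 7 were 2-fold or more lower, beside 15.3% and 14.8% of all genes above both floors, and the median was -0.79. The cohesin genes STAG2 and SMC1A were 3.25-fold and 3.61-fold lower, the cohesin loader gene MAU2 3.94-fold and the histone methyltransferase gene EHMT1 2.76-fold. MAU2 and EHMT1 were at -0.32 and -0.61 with the median of their probe sets. With the median of probe sets SMC1A changed sign, to 0.31, and 3 of the 22 were lower, whereas 13 were with the hybridisation controls set equal. CTCF and RAD21, named after their values were seen, were at -0.79 and -0.11. The list had a negative median under every scaling tried, from -1.09 to -0.73. It was weaker, at -0.54, with the median of probe sets and also without _x_at and _s_at probe sets. Whether these differences bear on the beta-cluster signals was not tested.

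Of 17 genes for cytoplasmic partners of protocadherins 16 were detected, none higher and 1 lower. These are 0.00% and 6.25%, beside 16.0% and 15.4% of all detected genes. The lower one, CYFIP2, a subunit of the WAVE actin regulator that delta-2 protocadherins bind, was 2.54-fold lower. FYN and WASF2 were at 0.77 and 0.81 and AXIN1 at -0.83, under 2-fold. Of 24 other cadherin superfamily genes 15 were detected, 1 higher and 4 lower, or 6.67% and 26.7%, beside the same 16.0% and 15.4%. The desmosomal cadherin genes DSC3 and DSC2 were at least 5.39-fold and 5.24-fold lower, the giant cadherin gene FAT3 at least 5.33-fold and CELSR2, a planar polarity receptor, 3.05-fold. With the median of probe sets FAT3, DSC2 and CELSR2 were under 2-fold. The higher gene, FAT4, named after its values were seen, read 134 and 315, 2.36-fold higher. It was under 2-fold with the hybridisation controls set equal. The list median was -0.10.

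**Figure D4:**
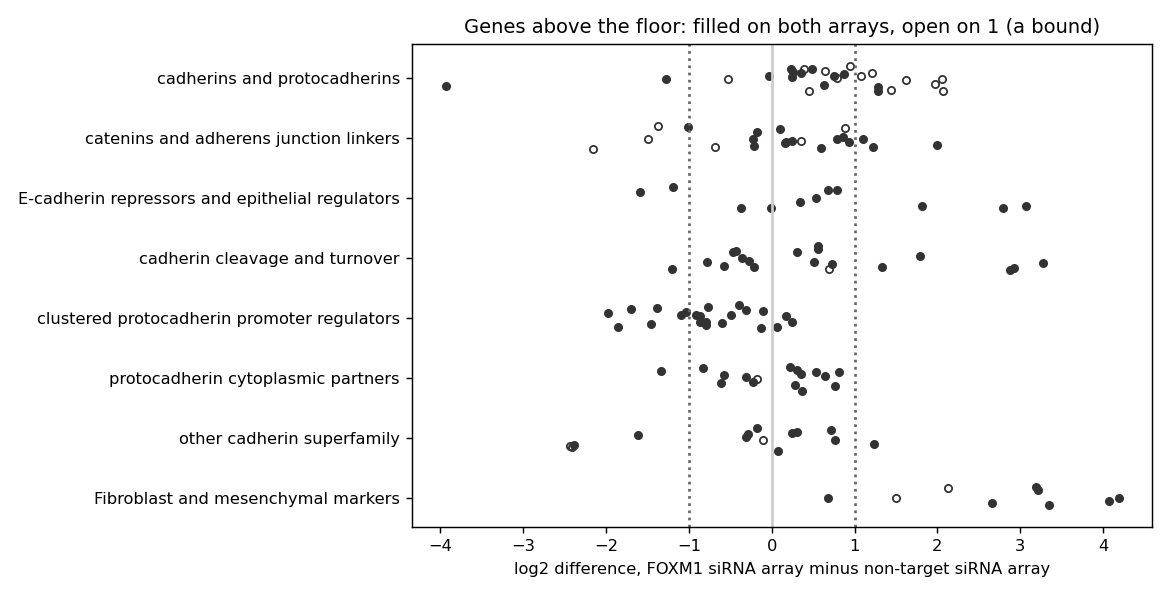
Log2 difference (FOXM1 siRNA array minus non-target siRNA array) of the detected cadherin and protocadherin genes and of detected members of 7 lists, 1 point per gene, with dotted lines at 2-fold. Detected genes that allowed no fold have no point, which among the cadherins and protocadherins are CDH12, CDH15, PCDH1 and PCDHGA1. Filled points were above the floor on both arrays, open points on 1, where the value is a bound; vertical scatter has no meaning. The promoter regulators lie mostly left of 0 and the fibroblast and mesenchymal markers right of it, while the cadherin genes spread on both sides.

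Markers of cell types were counted too. Of all detected genes 16.0% were at least 2-fold higher on the FOXM1 siRNA array and 15.4% lower. Of 12 fibroblast and mesenchymal markers 10 were detected and 8 of these (80.0%) were at least 2-fold higher on the FOXM1 siRNA array. Their summed signal was 7595 and 76342, and POSTN and THY1 were below both floors. Of 15 epithelial markers 7 were detected, none higher and 2 lower (28.6%), and KRT19 and CLDN3 were below both floors. The summed signal of the 15 was 5569 and 1520. OCLN, at 2274 and 245, and KRT18, at 2655 and 379.7, made up most of that drop. The other 5 detected, EPCAM, KRT8, KRT7, CLDN7 and SPINT1, had higher signals on the FOXM1 siRNA array but were not called at 2-fold. The median log2 difference of the detected epithelial markers was 0.46. Of 12 endothelial markers 5 were detected and 1, KDR, was at least 2.41-fold higher (under 2-fold with the hybridisation controls set equal, a common floor or a floor 2 times as high), with summed signals of 503 and 866 and CLDN5 and TIE1 below both floors. Of 12 neuronal markers 6 were detected, 2 higher and 1 lower, with summed signals of 9388 and 14290 and STMN2 and RBFOX3 below both floors. Of the 11 detected glial and neural progenitor markers 1, NES, was higher and 1, SOX2, lower (9.09% each). With the median of its probe sets SOX2 was at -0.15. The summed signals of all 15 were 23903 and 43052, most of which is VIM, also a mesenchymal gene. Without VIM the sums were 2725 and 3035. Of 6 melanocyte markers 3 were detected and none passed 2-fold, with summed signals of 1129 and 982. The 3' to 5' ratio of the ACTB control was 6.79 and 4.21. The part of cell type or RNA quality in the PCDH10, PCDH7 and beta-cluster differences was not tested.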

How the data were processed

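Total RNA of 2 samples was labelled with a 3' IVT kit and hybridised to 1 array each, per the labels' protocols. The deposited values are linear intensities made by the authors with MAS5, per the submitters' processing notes, with no version or settings given in the sources used here. Their 2% trimmed mean was 500.07 on both arrays. No detection calls were used. Probe sets were named from the platform annotation, where 41097 have 1 symbol, 1801 several and 11777 none here. Other genes' symbols were updated through the gene ID.

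Signals below the floor were raised to it before log2. A gene above 1 floor only has a bound, and no fold where the bound is under 1. Named genes were all detected members and, from each list of partner genes, up to 4 with the largest difference. Members and lists were chosen with earlier results of these data known. The calculation was tested on simulated data. With 1 array per group, precision is limited by the number of arrays. Alternatives are given at the end. limma 3.58.1 (R 4.3.3) did quantile and loess scaling; the rest used Python 3.11.15, numpy 2.4.6 and pandas 2.3.3.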

Additional observations from a re-analysis of the deposited data

How the results depend on the processing

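PCDH10 was at least 2-fold lower in every alternative tried, and PCDHB2 and PCDHB7 at least 2-fold higher; PCDH7 was under 2-fold with the median of probe sets. Counts of members moved with the floor. With a floor 2 times as high 3 members in place of 9 were higher, 0 classical cadherins in place of 3 and 3 protocadherins in place of 5. With no floor 5 members in place of 2 were lower (2 classical cadherins in place of 0), 8 protocadherins were higher and the median of detected members was 0.81 in place of 0.56. Both medians cover 30 members, 12 of them above the floor only on the FOXM1 siRNA array, so neither measures a shift of the family. CDH12, PCDH1 and PCDHGA1 read lower on that array, yet its higher floor enters them in the 0.56 at 0.23, 0.02 and 0.34. With the hybridisation controls set equal 5 members, 1 classical cadherin and 3 protocadherins were higher and the median was 0.26. Quantile, loess and common-floor settings gave medians of 0.42, 0.43 and 0.46. With the median of probe sets 1 member, a protocadherin, was lower, 1 classical cadherin was higher and the median was 0.35, which is the log2 ratio of the floors that a probe set below both gets by construction. Leaving out _x_at and _s_at probe sets gave a median of 0.45, with a pseudocount of 50 there was 1 lower classical cadherin, and at 1.5-fold 15 members and 10 protocadherins were higher. The same 0.35 is the value of CDH11, CDH23, CDH26 and PCDH9 with the median of probe sets, and of ARVCF in both settings where its sign turned (median of probe sets, and without _x_at and _s_at). SMC1A turned to 0.31 with the median of probe sets. With the hybridisation controls set equal CDH18, CDH22, PCDHB14 and PCDHGB5 were under 2-fold. No paired analysis was possible because each group holds 1 array.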

Other observations

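Probe sets that name several genes were not counted as members, and 16 of them hold a cadherin or protocadherin. The probe set shared by PCDH20 and the noncoding LINC02339 read 438 on the non-target siRNA array and 56.9 on the FOXM1 siRNA array, at least 5.64-fold lower. The probe set shared by PCDHB9 and PCDHB10 read 2.38 and 163, at least 2.68-fold higher, in the order of the detected beta-cluster genes. Of 3 probe sets that name all 15 alpha-cluster genes, 1 passed a floor, at 13.1 and 89.0. Of the 102 olfactory receptor genes used to set the floor, 21 were detected, with 2 past 2-fold on the higher side and 1 on the lower side of the FOXM1 siRNA array.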
